A study of Homo sapiens with 10 samples.

Results

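The interferon response and JAK-STAT genes examined here are 43 genes listed by name: 36 interferon-stimulated genes (ISGs), and 7 genes for the interferon receptors and the Janus kinases that act with them (IFNAR1, IFNAR2, IFNGR1, IFNGR2, JAK1, JAK2 and TYK2). All 43 were found among the 60642 gene symbols of the expression table. Membership was set by name and not by a measured value, though earlier results of these data were known when the genes were chosen. Bulk mRNA was measured in the established human prostate cancer cell lines PC3, DU145, LNCaP, VCAP and DUCAP. Each line was represented by 2 samples, labelled as biological repeats, for 10 samples in all. Repeats 1 and 2 follow that label, and the sample names carry a further number, 1 and 3 in DU145, 2 and 3 in PC3 and 1 and 2 in the other lines, whose meaning the labels do not give. All samples were untreated cells in phenol-red free RPMI medium with fetal bovine serum, harvested while growing exponentially, and none received an interferon. LNCaP was clone FGC, and these samples include no second clone of a line and no non-malignant prostate culture. The measured values are therefore baseline levels. They are in TPM, a unit that corrects for transcript length and is scaled to the same total in each sample, so that levels of different genes can be set side by side.

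Type I interferons bind a receptor made of IFNAR1 and IFNAR2, which activates the kinases JAK1 and TYK2. Interferon gamma binds IFNGR1 and IFNGR2, which act through JAK1 and JAK2. The kinases phosphorylate STAT proteins. A complex that includes STAT2 and IRF9 then binds the interferon-stimulated response element in the promoters of ISGs, whose products block viral entry, translation and genome copying, or tag and trim proteins with the ubiquitin-like ISG15.

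The promoters of several members show this element. The RefSeq promoter table (GRCh38.p14) held 34 of the 43 symbols, and the 250 bases before each start were searched on both strands for the core of the element, the letters GAAA and GAAA parted by any 2 bases. It was present in 19 of the 28 ISGs with a promoter entry (67.9%), in 0 of the 6 receptor and kinase genes with one, and in 3.71% of the 27305 genes of the whole table. The related STAT site TTCNNNGAA, which reads the same on both strands, was present in 9 of the 28 ISGs (32.1%), in 0 of the 6 and in 8.09% of all genes. In 3 ISGs a match of one motif overlapped a match of the other. The following stretches are the last 150 bases before the start of 6 ISGs on which later results turn, read 5′ to 3′ on the strand of the gene, with each match of the core or its reverse complement in capitals. In ISG15 and HERC5 neighbouring matches overlap.
ISG15: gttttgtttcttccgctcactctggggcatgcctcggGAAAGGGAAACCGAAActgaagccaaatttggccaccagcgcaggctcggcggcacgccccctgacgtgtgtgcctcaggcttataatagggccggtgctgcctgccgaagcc
IFIT1: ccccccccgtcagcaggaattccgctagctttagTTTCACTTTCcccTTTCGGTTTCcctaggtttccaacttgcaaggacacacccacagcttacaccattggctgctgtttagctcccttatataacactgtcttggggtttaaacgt
IFITM1: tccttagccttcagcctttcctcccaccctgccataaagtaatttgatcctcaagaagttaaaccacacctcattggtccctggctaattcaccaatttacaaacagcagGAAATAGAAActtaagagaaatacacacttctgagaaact
IFI6: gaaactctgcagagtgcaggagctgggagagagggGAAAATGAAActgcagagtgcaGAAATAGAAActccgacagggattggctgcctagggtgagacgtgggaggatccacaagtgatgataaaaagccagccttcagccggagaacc
HERC5: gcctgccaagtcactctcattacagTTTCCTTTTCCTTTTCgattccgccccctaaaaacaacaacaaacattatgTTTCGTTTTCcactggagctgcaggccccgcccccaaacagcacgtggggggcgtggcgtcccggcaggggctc
OAS3: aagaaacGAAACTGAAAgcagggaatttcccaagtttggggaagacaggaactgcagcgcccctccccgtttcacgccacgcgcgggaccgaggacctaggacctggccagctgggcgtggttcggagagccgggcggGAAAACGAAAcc
These lie at chr1:1013347-1013496 (ISG15, plus strand), chr10:89392473-89392622 (IFIT1, plus strand), chr11:313890-314039 (IFITM1, plus strand), chr1:27672193-27672342 (IFI6, minus strand), chr4:88456969-88457118 (HERC5, plus strand) and chr12:112938324-112938473 (OAS3, plus strand). The stretches of ISG15, IFIT1, IFI6 and OAS3 hold 2 matches each, that of HERC5 holds 3 and that of IFITM1 holds 1. A match is a description of the sequence and no measurement of binding.

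The line labels were set against line markers. KLK3, which encodes the prostate-specific antigen, lay between 28.3 and 2625 TPM in LNCaP, DUCAP and VCAP, and did not exceed 0.77 TPM in DU145 and PC3. The prostate genes TMPRSS2 and FOLH1 did not split the lines in this way. TMPRSS2 was at 18.9 and 22.7 TPM in PC3, below the 84.5 to 299 TPM of LNCaP, DUCAP and VCAP, and FOLH1 was at 4.97 and 40.9 TPM in PC3, above its 1.77 and 1.99 TPM in DUCAP. ERG lay between 122 and 199 TPM in DUCAP and VCAP, and did not exceed 0.19 TPM elsewhere. The epithelial keratin KRT8 was at 98.9 TPM or more in every sample. Of the markers of other cell types, PTPRC, CD3E, LYZ, PECAM1 and PDGFRB stayed at or below 0.6 TPM in all 10 samples, and CD14 reached 1.43 TPM in DU145 repeat 1 against 0.69 TPM in DU145 repeat 2. Mitochondrial transcripts took 32.1 to 36.0% of the TPM in DUCAP and VCAP and 12.7 to 22.5% in the other lines, which moves the TPM of all remaining genes in the opposite direction.

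The repeats of DU145 differed in the ISGs before any line was compared with another. All 36 ISGs were higher in DU145 repeat 1 than in DU145 repeat 2, and 22 of them were at least 2-fold higher on the log2(TPM + 1) scale, against 5.70% of the 17520 genes tested. No member was at least 2-fold higher in DU145 repeat 2, where 3.78% of all genes were. None of the 7 receptors and kinases differed by 2-fold between these samples. In the other lines, 2 members (LNCaP), 2 members (VCAP), 0 members (DUCAP) and 0 members (PC3) differed by 2-fold in either direction, where the shares of all genes were 0.942%, 2.12%, 0.902% and 0.993%. The counts of the line comparisons and the 5 largest differences of DU145 and PC3 from the other lines are therefore also given without one or the other of these samples. In bulk RNA, fewer expressing cells and less RNA per expressing cell cannot be told apart.

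**Figure D1:**
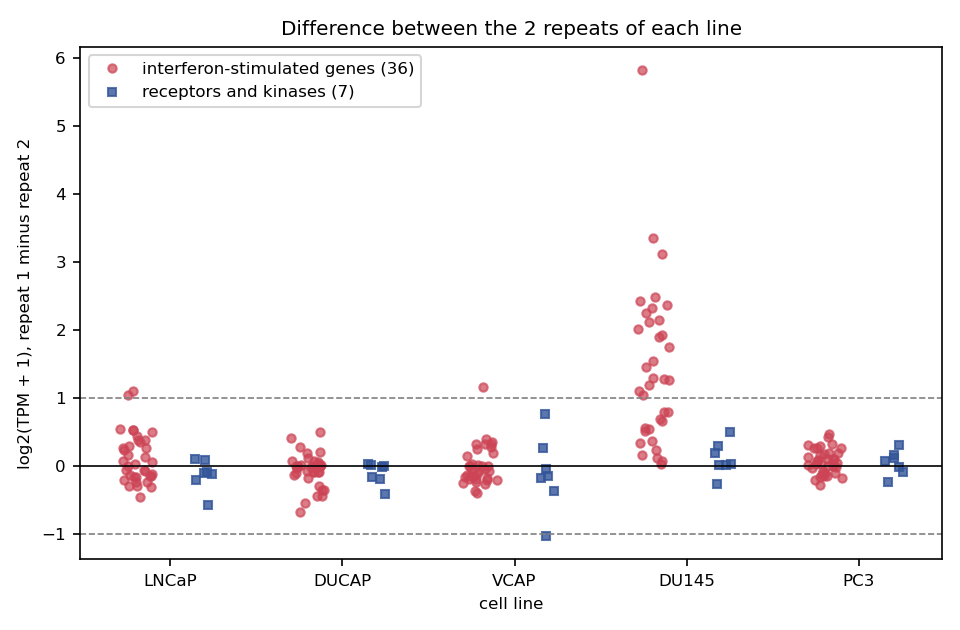
Difference in log2(TPM + 1) between repeat 1 and repeat 2 of each line, 1 point per gene, circles for the 36 ISGs and squares for the 7 receptors and kinases, with dashed lines at a 2-fold difference. In DU145 the ISGs lie above 0, 22 of them above the upper dashed line and 1 at 5.81, while the receptors and kinases of DU145 lie within the dashed lines.

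The size of the gap between the DU145 repeats varied widely among the ISGs. IFITM1, an interferon-induced membrane protein that restricts viral entry, was at 59.7 TPM in repeat 1 and at 0.08 TPM in repeat 2. Its relative IFITM3 was at 764 and 73.8 TPM, and IFITM2 at 472 and 87.4 TPM. The 3 genes are closely related paralogs, so that the share of reads given to each is uncertain. OASL, a relative of the oligoadenylate synthetases, was at 52.4 TPM in repeat 1 and 5.13 TPM in repeat 2. IFIT3, which binds viral RNA together with IFIT1, was at 46.2 and 10.7 TPM, and the RNA sensor relative DHX58 at 12.3 and 2.09 TPM. The antiviral GTPase MX2 was at 5.22 and 0.31 TPM, and the virus-tethering protein BST2 at 4.59 and 0.09 TPM. At the other end stood ISGs with nearly equal levels in both samples. OAS3, another oligoadenylate synthetase, was at 25.5 and 24.1 TPM, the kinase EIF2AK2 at 24.8 and 24.3 TPM, the ISG15 protease USP18 at 22.6 and 20.1 TPM, and the transcription factor IRF1 at 25.2 and 23.0 TPM. JAK1 (34.1 and 33.3 TPM), JAK2 (2.78 and 2.72 TPM) and IFNAR2 (35.98 and 35.6 TPM) were likewise close.

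The median difference over the 34 ISGs that passed the filter on low values (at least 1 TPM in at least 2 samples) was 1.29 on the log2 scale, against 0.03 for the receptors and kinases and 0 for all genes tested. The 19 ISGs with the promoter motif had a median difference of 1.19 and the 9 without it 0.69. At least 2-fold were 12 of those 19 and 3 of those 9, and OAS3, with 2 matches in the stretch printed above, differed by little. The ISGs without a promoter entry are in neither group. Among them MX2, OAS2, OASL, IFIT2, IFITM2, DHX58 and IRF7 differed by 1.75 to 3.12, and USP18 by 0.165. A relation of the motif to the gap was not tested. DU145 repeat 1 held the highest level of the 10 samples for 21 of the 34 ISGs, against 16.0% of all genes, and was at least 2 times as high as each of the other 9 samples for 11 of the 36. Mitochondrial transcripts took 22.5% of the TPM in DU145 repeat 1 and 15.3% in repeat 2, and the part of this or of any other difference between the 2 cultures in the ISG levels was not tested. With 1 sample on each side, the gap itself has no test.

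Across the 5 lines the ISGs lay highest in DU145 and PC3, at an intermediate level in LNCaP and lowest in DUCAP and VCAP. The median TPM over the 36 ISGs was 19.3 and 5.20 for the DU145 repeats, 10.0 and 8.39 for PC3, 2.63 and 2.22 for LNCaP, 0.92 and 0.77 for VCAP and 0.665 and 0.725 for DUCAP. The receptors and kinases spanned less, with medians of 13.3 and 14.3 TPM in LNCaP, 13.6 and 15.4 TPM in DUCAP, 15.9 and 17.7 TPM in VCAP, 36.0 and 35.6 TPM in DU145, and 40.8 and 41.4 TPM in PC3. PC3 lay between the 2 DU145 samples, so that the order of these lines is not set. The DUCAP and VCAP medians lay next to each other without overlap. At 1 TPM or more were 25 to 28 of the 36 ISGs in the LNCaP samples, 15 to 17 in the DUCAP and VCAP samples, 28 and 32 in DU145 and 32 in each PC3 sample. Among the 34 ISGs that passed the filter, DU145 had the highest line mean for 16 (all genes 25.5%) and PC3 for 16 (29.7%), and DUCAP had the lowest for 22 (37.1%). The first 2 counts followed the DU145 sample used. Without DU145 repeat 1, of 33 ISGs tested DU145 was highest for 9 (all genes 25.2%), PC3 for 21 (30.0%) and DUCAP lowest for 21 (36.3%). Without DU145 repeat 2, of 34 ISGs DU145 was highest for 23 (all genes 24.3%), PC3 for 9 (30.2%) and DUCAP lowest for 22 (36.4%).

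**Figure D2:**
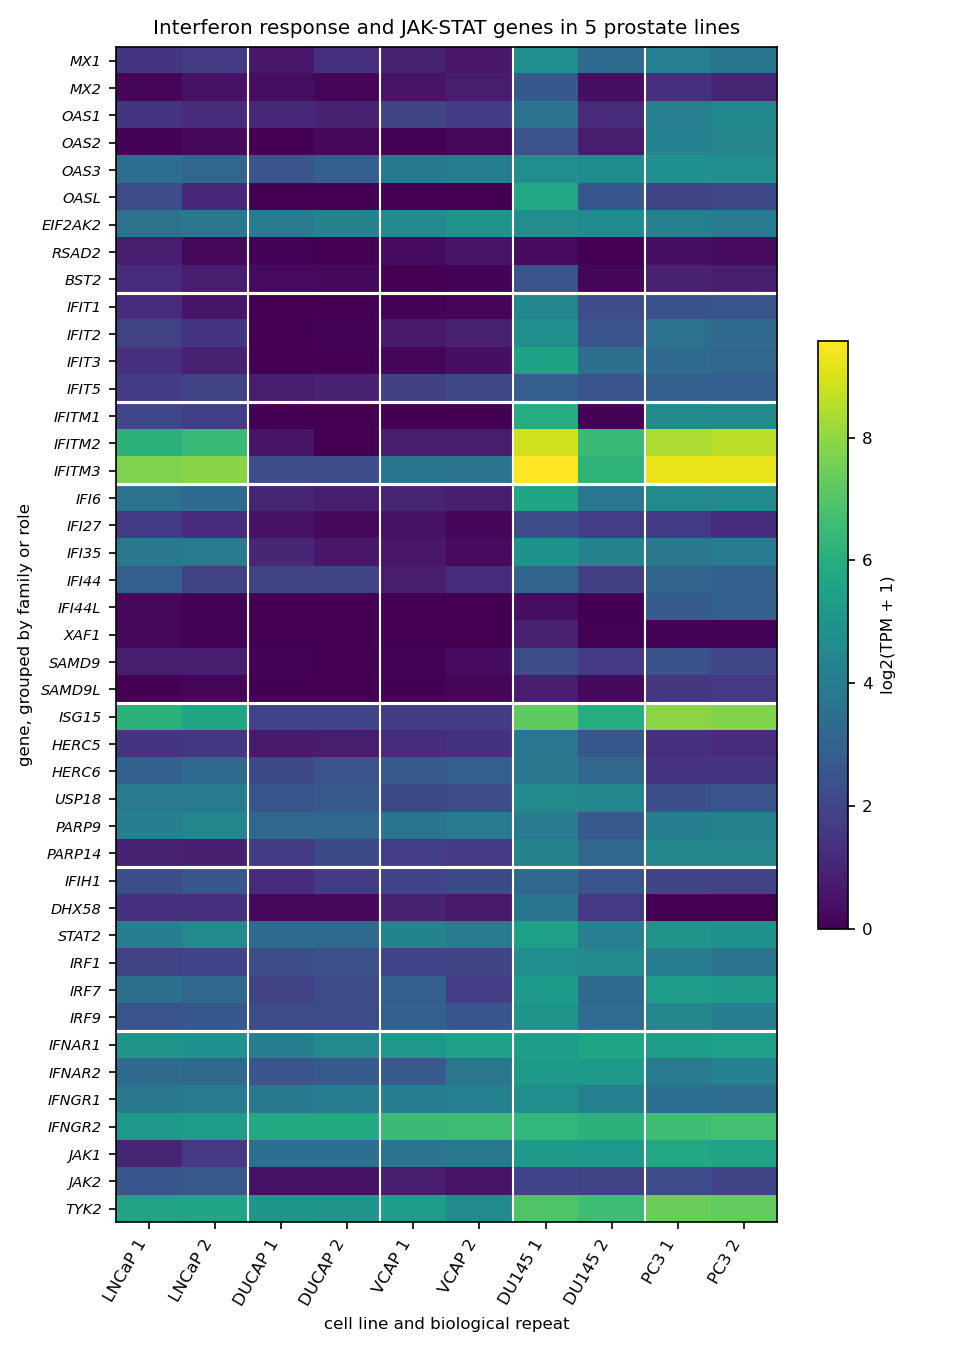
Heatmap of log2(TPM + 1) for the 43 genes (rows, grouped by family or role, receptors and kinases last) in the 10 samples (columns, 2 repeats per line). IFITM2, IFITM3 and ISG15 are bright in LNCaP, DU145 and PC3 and dark in DUCAP and VCAP, and DU145 repeat 2 is darker than repeat 1 in most ISG rows.

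The most abundant members differed by line. In LNCaP they were IFITM3 with a mean of 223 TPM, IFITM2 with 79.0 TPM and ISG15 with 59.4 TPM. In PC3 the same 3 genes led, with 610, 360 and 228 TPM, and in DU145 the means were led by IFITM3 (419 TPM), IFITM2 (280 TPM) and TYK2 (109 TPM). Neither DU145 sample had that order. Repeat 1 was led by IFITM3 (764 TPM), IFITM2 (472 TPM) and ISG15 (149 TPM), and repeat 2 by TYK2 (97.5 TPM), IFITM2 (87.4 TPM) and IFITM3 (73.8 TPM). No ISG was among the leading 3 in DUCAP or VCAP. There the leading members were IFNGR2 (55.2 and 92.6 TPM), TYK2 (31.2 and 31.7 TPM) and IFNAR1 (19.4 and 38.6 TPM). Across the 10 samples 18 of the 43 members reached 1 TPM in every sample, 12 of them ISGs. RSAD2, an enzyme that makes a chain-terminating nucleotide, stayed at or below 0.67 TPM and XAF1 at or below 0.83 TPM in all samples, and both were left out of the tests by the filter.

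To ask which members differed between lines, log2(TPM + 1) was compared with limma over all 17520 genes, with an adjusted p of 0.05 as the threshold. In the F test over the 5 lines 38 of the 41 members tested passed, a share near that of all genes (90.8%). In the comparison of DU145 and PC3 with LNCaP, DUCAP and VCAP, 34 of the 41 members were higher in DU145 and PC3 and 0 were lower. Of all genes 51.9% were higher and 22.5% were lower. The 34 were 28 of the 34 ISGs and 6 of the 7 receptors and kinases. The median difference was 1.71 for the ISGs and 0.76 for the receptors and kinases, and 0.40 for all genes. In 17 of the 41 members all 4 samples of DU145 and PC3 lay above all 6 samples of the other lines, which held for 19.8% of all genes. Without DU145 repeat 1 this was true of 17 of 40 members (all genes 23.1%), and without DU145 repeat 2 of 26 of 41 (22.8%). In all, 5 members passed the filter through DU145 or PC3 alone (MX2, OAS2, IFI44L, SAMD9 and SAMD9L). Without the filter, 33 of the 43 members were higher, and 33.4% of all genes.

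**Figure D3:**
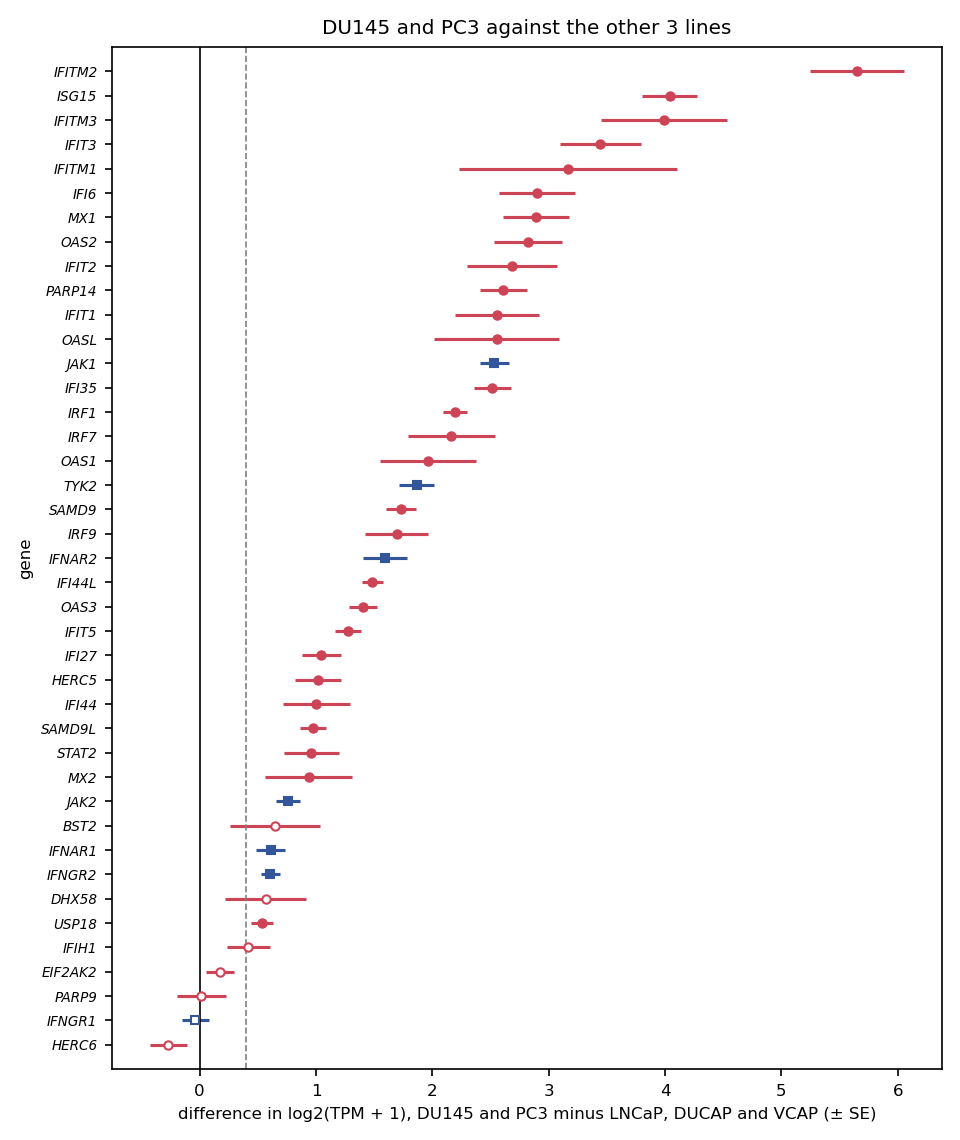
Difference in log2(TPM + 1) between DU145 and PC3 and the other 3 lines for the 41 members tested, with standard errors, filled where the adjusted p was below 0.05, circles for ISGs and squares for receptors and kinases. The dashed line marks the median of all genes (0.40), and the differences run from −0.27 (HERC6) to 5.65 (IFITM2).

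The IFITM family, whose products sit in membranes and hinder fusion of enveloped viruses, had the largest median difference of the member groups (3.99). IFITM2 had the largest difference of all members, while ISG15 (4.04) came before IFITM3 and IFITM1. IFITM2 was at 71.1 and 87.0 TPM in LNCaP, at 0.42 and 0.00 TPM in DUCAP, at 0.64 and 0.69 TPM in VCAP, at 472 and 87.4 TPM in DU145, and at 339 and 381 TPM in PC3. The groups did not overlap, although DU145 repeat 2 stood level with LNCaP repeat 2 (difference 5.65 ± 0.41 SE on the log2 scale, adjusted p = 4e-06 by limma). IFITM3 was at 210 and 235 TPM in LNCaP, 3.86 and 3.79 TPM in DUCAP, 12.1 and 11.9 TPM in VCAP, 764 and 73.8 TPM in DU145, and 616 and 604 TPM in PC3. Here DU145 repeat 2 fell below both LNCaP samples (difference 3.99 ± 0.54 SE, adjusted p = 0.00019). IFITM1 was at 3.08 and 2.39 TPM in LNCaP, listed at 0 in all DUCAP and VCAP samples, and at 23.6 and 22.2 TPM in PC3, beside the 59.7 and 0.08 TPM of DU145 (difference 3.17 ± 0.93 SE, adjusted p = 0.014). The IFITM1 difference was 1.71 without DU145 repeat 1 and 4.62 without repeat 2, that of IFITM3 3.15 and 4.83, and that of IFITM2 5.04 and 6.25, all past the threshold.

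The IFIT family, RNA-binding proteins that stop translation of viral messages, rose in all 4 members. IFIT3 was at 1.51 and 0.84 TPM in LNCaP, 0.00 and 0.02 TPM in DUCAP, 0.10 and 0.32 TPM in VCAP, 46.2 and 10.7 TPM in DU145, and 9.22 and 7.99 TPM in PC3. The groups did not overlap (difference 3.44 ± 0.34 SE, adjusted p = 3e-05). IFIT2 (2.69 ± 0.39 SE), IFIT1 (2.55 ± 0.36 SE) and IFIT5 (1.28 ± 0.11 SE) were higher by less, also with no overlap. The IFIT3 difference was 2.94 without DU145 repeat 1 and 3.95 without repeat 2.

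Of the 6 members listed with the ISG15 system, 4 rose: ISG15 itself, the ligase HERC5, the protease USP18 and the ADP-ribosyltransferase PARP14. For HERC5 and USP18 the rise was in DU145 alone. HERC5 was at 1.48 and 1.20 TPM in PC3 and at 0.61 to 1.93 TPM in LNCaP, DUCAP and VCAP. USP18 was at 3.93 and 4.68 TPM in PC3 and at 3.44 to 14.1 TPM in those lines. ISG15 was at 69.8 and 49.0 TPM in LNCaP, 2.84 and 2.84 TPM in DUCAP, 2.26 and 2.19 TPM in VCAP, 149 and 60.7 TPM in DU145, and 242 and 215 TPM in PC3. LNCaP repeat 1 lay above DU145 repeat 2, so that the groups overlapped (difference 4.04 ± 0.23 SE, adjusted p = 1.1e-06). It was 3.72 without DU145 repeat 1 and 4.36 without repeat 2. PARP14, at 0.76 to 3.39 TPM in the 6 samples of the other lines, was at 18.6 and 8.54 TPM in DU145 and at 20.1 and 19.7 TPM in PC3. HERC6 (difference −0.27 ± 0.16 SE, adjusted p = 0.15) and PARP9 (0.02 ± 0.21 SE, adjusted p = 0.95) did not pass.

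Among the MX and OAS effectors, 6 of the 8 tested rose. MX1, OAS2 and OAS3 did so without overlap, unlike OASL, OAS1 and MX2. OASL was at 2.87 and 3.27 TPM in PC3, below the 3.58 TPM of LNCaP repeat 1. DU145 repeat 2 lay below both VCAP samples for OAS1 (1.21 against 3.02 and 2.22 TPM) and MX2 (0.31 against 0.46 and 0.67 TPM). MX1, a GTPase that traps viral nucleocapsids, was at 0.58 to 2.06 TPM in the other lines, at 26.6 and 9.06 TPM in DU145 and at 17.2 and 12.1 TPM in PC3 (difference 2.89 ± 0.29 SE). OAS2 did not exceed 0.18 TPM in LNCaP, DUCAP and VCAP, and was at 4.52 and 0.64 TPM in DU145 and at 18.1 and 19.6 TPM in PC3. EIF2AK2 (0.17 ± 0.12 SE, adjusted p = 0.23) and BST2 (0.65 ± 0.39 SE, adjusted p = 0.16) did not pass. All 7 tested members of the IFI group were called higher, though not each in both lines. IFI35 was at 13.0 and 14.0 TPM in PC3 and at 13.2 and 13.9 TPM in LNCaP. IFI27 was at 2.18 and 1.37 TPM in PC3 and at 2.20 and 1.21 TPM in LNCaP. IFI44L was at 0.27 and 0.00 TPM in DU145, against up to 0.15 TPM in LNCaP, DUCAP and VCAP. IFI44 was at 2.55 TPM in DU145 repeat 2, below its 6.56 and 2.68 TPM in LNCaP. In that group IFI6, a mitochondrial and endoplasmic reticulum protein, had the largest difference (2.90 ± 0.33 SE), with 0.74 to 11.1 TPM in the other lines, 50.5 and 12.6 TPM in DU145 and 23.0 and 23.2 TPM in PC3. Of the sensors and transcription factors 4 of 6 rose, namely IRF1, IRF7, IRF9 and STAT2. IRF1 and IRF9 showed no overlap. For STAT2, DU145 repeat 2 (17.1 TPM) lay below LNCaP repeat 2 (22.6 TPM), and for IRF7 (8.91 TPM) below LNCaP repeat 1 (10.6 TPM). IRF1 was at 2.61 to 4.11 TPM in the other lines, at 25.2 and 23.0 TPM in DU145 and at 15.1 and 11.9 TPM in PC3 (difference 2.19 ± 0.10 SE, adjusted p = 3.7e-07). The RNA sensor IFIH1 (0.42 ± 0.18 SE, adjusted p = 0.069) and DHX58 (adjusted p = 0.17) did not pass.

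The counts were also taken without each DU145 sample. Without DU145 repeat 1, 34 of 40 members tested were higher (all genes 52.5%) and PARP9 and HERC6 were lower (all genes 24.2%). Without DU145 repeat 2, 38 of 41 were higher (all genes 51.5%) and 0 were lower (24.0%). Of the family counts above, those of the IFIT, IFITM and IFI genes were the same without either sample. Without repeat 1 the others were 6 of 7 (MX and OAS effectors), 4 of 6 (ISG15 system) and 4 of 6 (sensors and transcription factors), and without repeat 2 they were 7 of 8, 5 of 6 and 6 of 6. MX2 lost its call without any 1 sample of PC3, LNCaP, DUCAP or VCAP (adjusted p of 0.069 to 0.13). The TPM of all genes were displaced between the line groups, and median-ratio scaling moved the median of all genes from 0.40 to 0.02. It left 28 of 41 members higher (all genes 37.8%) and 3 lower, EIF2AK2, HERC6 and IFNGR1 (all genes 34.8%). The calls it ended were those of MX2, IFI44, USP18, STAT2, IFNAR1 and IFNGR2. The share of higher calls among all calls went from 69.8% to 52.1% for all genes.

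The receptors and kinases were set against this pattern line by line. JAK1, which serves both receptors, was at 1.00 and 1.98 TPM in LNCaP, 10.4 and 10.2 TPM in DUCAP, 11.8 and 13.5 TPM in VCAP, 34.1 and 33.3 TPM in DU145, and 51.4 and 47.3 TPM in PC3. Its order was LNCaP, then DUCAP and VCAP, which did not differ beyond the threshold (adjusted p = 0.40), then DU145 and PC3, which missed it narrowly (adjusted p = 0.051). TYK2 was at 46.9 and 49.8 TPM in LNCaP, 31.6 and 30.8 TPM in DUCAP, 40.2 and 23.2 TPM in VCAP, 120 and 97.5 TPM in DU145, and 173 and 155 TPM in PC3. DU145 and PC3 were above the other lines in every sample for both kinases, by 2.53 ± 0.13 SE (JAK1, adjusted p = 5e-07) and 1.86 ± 0.15 SE (TYK2, adjusted p = 8.2e-06). JAK2, the partner of IFNGR2, followed another order. It was at 4.95 and 5.46 TPM in LNCaP, 0.39 and 0.39 TPM in DUCAP, 0.72 and 0.43 TPM in VCAP, 2.78 and 2.72 TPM in DU145, and 3.82 and 2.88 TPM in PC3. LNCaP thus held the lowest JAK1 and the highest JAK2 of the 5 lines. JAK2 was still among the members called higher in DU145 and PC3 than in the other lines, by 0.76 on the log2 scale. Every DU145 and PC3 sample lay above the DUCAP and VCAP samples for JAK2, but below both LNCaP samples. The call therefore rests on the low DUCAP and VCAP values.

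**Figure D4:**
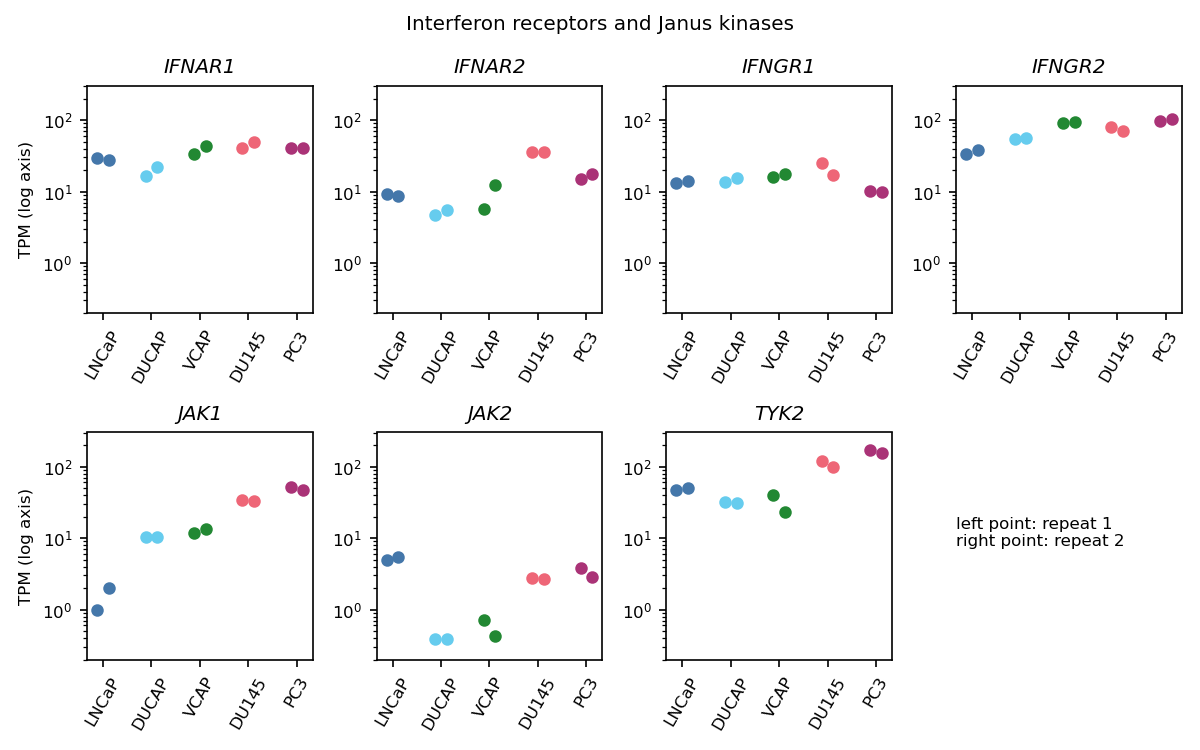
TPM on a log axis of the 4 receptor genes and 3 kinase genes in the 5 lines, left point repeat 1 and right point repeat 2. JAK1 is lowest in LNCaP (1.00 and 1.98 TPM), where JAK2 is highest (4.95 and 5.46 TPM). On the log axis JAK1 and JAK2 each span a wider range than any of the 4 receptor genes. The range of TYK2 (23.2 to 173 TPM) is close to that of the receptor gene IFNAR2 (4.76 to 36.0 TPM).

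IFNAR2, the subunit with the higher affinity for type I interferon, was at 9.29 and 8.64 TPM in LNCaP, 4.76 and 5.59 TPM in DUCAP, 5.66 and 12.5 TPM in VCAP, 36.0 and 35.6 TPM in DU145, and 14.9 and 17.8 TPM in PC3. DU145 and PC3 were higher in every sample (1.59 ± 0.19 SE, adjusted p = 8.4e-05). The other type I subunit, IFNAR1, was at 29.9 and 27.7 TPM in LNCaP, 16.6 and 22.3 TPM in DUCAP, 33.5 and 43.7 TPM in VCAP, 40.6 and 49.0 TPM in DU145, and 40.8 and 41.4 TPM in PC3. The groups overlapped through VCAP, and the difference of 0.61 ± 0.12 SE (adjusted p = 0.0019) fell to 0.15 (adjusted p = 0.25) after median-ratio scaling. The interferon gamma subunit IFNGR2 was at 33.1 and 38.2 TPM in LNCaP, 55.0 and 55.5 TPM in DUCAP, 91.2 and 94.0 TPM in VCAP, 81.0 and 70.6 TPM in DU145, and 97.0 and 103 TPM in PC3. Its difference of 0.61 ± 0.08 SE (adjusted p = 0.00018) fell in the same way to 0.14 (adjusted p = 0.17). IFNGR1, which binds interferon gamma, was at 13.3 and 14.3 TPM in LNCaP, 13.6 and 15.4 TPM in DUCAP, 15.9 and 17.7 TPM in VCAP, 25.1 and 17.3 TPM in DU145, and 10.3 and 9.78 TPM in PC3. It did not pass in the TPM as deposited (−0.04 ± 0.12 SE, adjusted p = 0.79) and was lower in DU145 and PC3 after median-ratio scaling (−0.48, adjusted p = 0.0055).

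DU145 and PC3 were compared with each other next. Of the 41 members 10 were higher in DU145 (all genes 23.8%) and 7 were lower (25.5%). HERC6 was at 13.3 and 7.86 TPM in DU145 and at 1.70 and 1.75 TPM in PC3 (difference 2.04 ± 0.25 SE, adjusted p = 0.00024). USP18, which also blocks IFNAR2 signaling, was at 22.6 and 20.1 TPM against 3.93 and 4.68 TPM (2.08 ± 0.15 SE, adjusted p = 1.3e-05). HERC5 was at 12.5 and 5.26 TPM against 1.48 and 1.20 TPM (1.98 ± 0.31 SE, adjusted p = 0.00099). HERC5, which attaches ISG15 to proteins, and USP18, which removes it, were thus higher in DU145, while ISG15 itself was lower there, at 149 and 60.7 TPM against 242 and 215 TPM (−1.25 ± 0.36 SE, adjusted p = 0.020). IFNAR2 was also higher in DU145 (1.09 ± 0.29 SE, adjusted p = 0.015), as was IFNGR1 (0.98 ± 0.18 SE, adjusted p = 0.0027).

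Lower in DU145 were OAS2 (−2.72 ± 0.45 SE, adjusted p = 0.0014), with the TPM given above, and OAS1, at 11.3 and 1.21 TPM against 17.2 and 21.1 TPM (−1.94 ± 0.64 SE, adjusted p = 0.035). IFI44L was at 0.27 and 0.00 TPM in DU145 and 5.99 and 6.78 TPM in PC3 (−2.71 ± 0.14 SE, adjusted p = 2e-06), and did not exceed 0.15 TPM in the remaining lines. SAMD9L, which limits protein synthesis in infected cells, was at 0.72 and 0.17 TPM against 1.84 and 1.99 TPM (−1.04 ± 0.17 SE, adjusted p = 0.0015). IFI44L and SAMD9L passed the filter through PC3 alone, so that they were tested only because PC3 was high. IFNGR2 was lower in DU145 by 0.40 on the log2 scale (adjusted p = 0.030). JAK1 (−0.53 ± 0.20 SE, adjusted p = 0.051), TYK2 (−0.59 ± 0.23 SE, adjusted p = 0.067), JAK2 (−0.21 ± 0.16 SE, adjusted p = 0.33) and IFNAR1 (0.11 ± 0.19 SE, adjusted p = 0.66) did not pass. Without either PC3 sample the share of all genes called in this comparison fell too, so that the loss of calls was not particular to the members. Leaving out PC3 repeat 1 brought the 17 called members down to 7. It ended the calls of OAS1 (adjusted p = 0.093), ISG15 (0.097), IFNGR2 (0.088), IFNAR2 (0.087), EIF2AK2 (0.052), IFI35 (0.14), PARP9 (0.12) and IFIH1 (0.094), and IFI44L and SAMD9L no longer passed the filter. Leaving out PC3 repeat 2 brought them down to 8 and ended the same calls except that of IFNAR2, at adjusted p of 0.066 (ISG15) to 0.18 (PARP9 and EIF2AK2). The calls of OAS1 and PARP9 were also lost without any 1 sample of LNCaP, DUCAP or VCAP (0.051 to 0.073).

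The direction of many ISGs in this comparison depended on which DU145 sample was used. Without DU145 repeat 1, 7 members were higher in DU145 (all genes 23.4%) and 19 lower (all genes 27.4%). Without DU145 repeat 2, 19 were higher (all genes 23.4%) and 5 lower (all genes 27.5%). The remaining DU145 sample was then assumed to vary like the other lines. IFI6, IFIT2, IFITM1, IRF9 and MX2 were called lower in the first case and higher in the second. Called in the same direction in both were DHX58, HERC5, HERC6, IFNAR2, IFNGR1, IRF1 and USP18 (higher in DU145) and IFI44L, ISG15, OAS1, OAS2 and SAMD9L (lower). IFI44L and SAMD9L had been tested through their PC3 values alone. Of the 36 ISGs, 25 were lower in DU145 repeat 2 than in both PC3 samples, and 23 were higher in DU145 repeat 1 than in both.

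DHX58, which encodes LGP2, a regulator of the RNA sensors RIG-I and MDA5, was listed at 0 in both PC3 samples. It was at 1.55 and 1.43 TPM in LNCaP, 0.14 and 0.15 TPM in DUCAP, 0.92 and 0.61 TPM in VCAP, and 12.3 and 2.09 TPM in DU145 (DU145 against PC3, adjusted p = 0.0037 by limma). Its neighbours on chromosome 17 were then read, a choice made after its values were seen. DHX58 and the 11 protein-coding genes that follow it in RefSeq order (GRCh38.p14, chr17:42101411-42522579, 421 kb) were each at 0.08 TPM or less in both PC3 samples. The 12 genes are DHX58, KAT2A, HSPB9, RAB5C, KCNH4, HCRT, GHDC, STAT5B, STAT5A, STAT3, CAVIN1 and ATP6V0A1. In the other 8 samples RAB5C, a small GTPase of endosomes, was at 67.9 to 200 TPM, the acetyltransferase KAT2A at 22.7 to 58.5 TPM and ATP6V0A1, a proton pump subunit, at 26.9 to 66.9 TPM. HSPB9, KCNH4 and HCRT did not exceed 0.4 TPM in the other lines either. The genes on either side were not at 0 in PC3. C17orf113 was at 0.63 and 0.93 TPM, ZNF385C at 0.51 and 0.71 TPM and NKIRAS2 at 32.9 and 34.8 TPM before the run, and NAGLU at 6.49 and 6.78 TPM after it. Of the 12 genes, 6 were at 1 TPM or more in all 8 samples of the other lines, and of the 9473 protein-coding genes of which this is true, 60 (0.633%) were at 0.1 TPM or less in both PC3 samples.

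**Figure D5:**
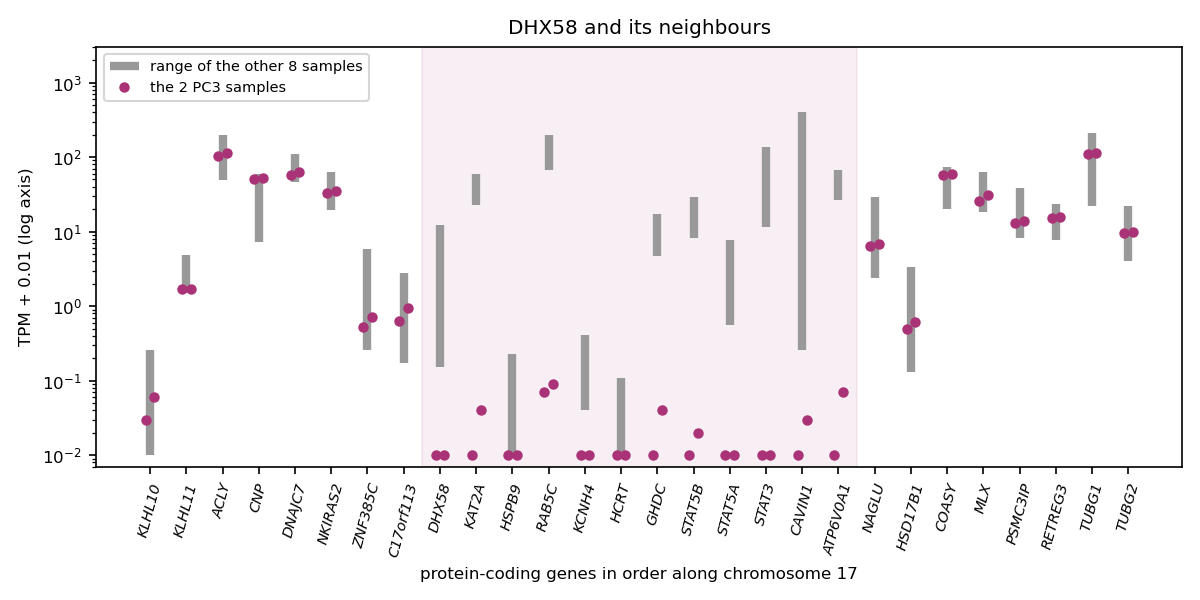
TPM (plus 0.01, log axis) of DHX58 and its protein-coding neighbours in their order on chromosome 17, with the 2 PC3 samples as points, the lower one on the left, and the range of the other 8 samples as grey bars. In the shaded run of 12 genes the PC3 points lie at or below 0.08 TPM, and outside it they lie within the grey bars.

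The run includes the STAT genes STAT3, STAT5A and STAT5B, transcription factors of the JAK-STAT pathway that are not among the 43 genes. STAT3 was listed at 0 in both PC3 samples, at 80.0 and 75.5 TPM in LNCaP, 11.6 and 17.2 TPM in DUCAP, 13.4 TPM in both VCAP samples, and 137 and 113 TPM in DU145. STAT5B was at 0.01 and 0.00 TPM in PC3 and at 29.0 and 22.7 TPM in DU145, above the 8.28 to 18.9 TPM of the other lines. Both fell in the comparison of DU145 and PC3 with the other lines (STAT3 −1.20 ± 0.12 SE, STAT5B −1.32 ± 0.13 SE), a difference that joins the highest line and the lowest in 1 mean.

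LNCaP was compared with DUCAP and VCAP, samples that also entered the first comparison. Of the 41 members 12 were higher in LNCaP (all genes 49.2%) and 4 were lower (15.5%). With all samples in the fit the share of members that were higher was below that of all genes, a relation that turned around without either DU145 sample, where 25 of 40 and 26 of 41 members were higher. IFITM2 (5.82 ± 0.54 SE, adjusted p = 3.1e-05), IFITM3 (4.81 ± 0.73 SE, adjusted p = 0.00048) and ISG15 (4.08 ± 0.31 SE, adjusted p = 1e-05) led, with the TPM given above and no overlap. IFI35 was at 13.2 and 13.9 TPM in LNCaP, 1.04 and 0.54 TPM in DUCAP, and 0.54 and 0.23 TPM in VCAP (3.22 ± 0.21 SE, adjusted p = 5.3e-06). IFI6 was at 11.1 and 9.12 TPM against 0.74 to 1.00 TPM in DUCAP and VCAP (2.57 ± 0.44 SE, adjusted p = 0.00095). The other ISGs that rose were USP18, IFI27, SAMD9, IFIH1 and HERC6, of which IFIH1 and HERC6 lost their calls after median-ratio scaling. Without LNCaP repeat 1 or repeat 2 the calls of SAMD9 (0.075 and 0.065), HERC6 (0.065 and 0.23) and IFIH1 (0.081 and 0.20) were lost. The median over the 34 ISGs was 0.71, against 0.47 for all genes.

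The members that fell in LNCaP were JAK1 (−2.35 ± 0.17 SE, adjusted p = 7.7e-06), IFNGR2 (−0.99 ± 0.11 SE, adjusted p = 8.3e-05), PARP14 (−0.94 ± 0.27 SE, adjusted p = 0.014) and EIF2AK2 (−0.76 ± 0.16 SE, adjusted p = 0.0035). PARP14 was at 0.83 and 0.76 TPM in LNCaP against 1.99 to 3.39 TPM in DUCAP and VCAP, and its call was lost without LNCaP repeat 1 (adjusted p = 0.065) or repeat 2 (0.077). EIF2AK2, the kinase PKR that halts translation on double-stranded RNA, was at 11.0 and 13.1 TPM in LNCaP against 15.0 to 30.3 TPM. JAK2 was higher in LNCaP (2.07 ± 0.14 SE, adjusted p = 5.7e-06), and so was TYK2 (0.63 ± 0.20 SE, adjusted p = 0.024), though TYK2 lost its call without LNCaP repeat 1 (0.085) or repeat 2 (0.12), without DUCAP repeat 1 (0.051) or repeat 2 (0.056), and after median-ratio scaling (−0.02, adjusted p = 0.97). IFNAR1 (0.08 ± 0.16 SE, adjusted p = 0.72), IFNAR2 (0.38 ± 0.25 SE, adjusted p = 0.22) and IFNGR1 (−0.17 ± 0.16 SE, adjusted p = 0.39) did not pass. After median-ratio scaling IFNAR1 (−0.56, adjusted p = 0.011) and IFNGR1 (−0.79, adjusted p = 0.0025) were called lower in LNCaP, as they were after quantile normalization (0.0077 and 0.0028).

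With median-ratio scaling, 9 members were higher in LNCaP (all genes 30.6%) and 8 lower (29.1%), and the share of higher calls among all calls went from 76.1% to 51.3% for all genes. Leaving out a DU145 sample, which takes the gap between its repeats out of the spread shared by all lines, gave these 25 of 40 (without repeat 1, all genes 54.8%) and 26 of 41 members (without repeat 2, all genes 54.7%). Among those that gained a call in both cases were IFIT1, IFIT2, IFIT3 and IFIT5, with 0.49 to 2.65 TPM in LNCaP, and IRF7, at 10.6 and 8.06 TPM in LNCaP against 2.34 to 6.47 TPM in DUCAP and VCAP.

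DUCAP and VCAP differed least. Of the 41 members 0 were higher in DUCAP (all genes 4.24%) and 4 were lower (14.0%). OAS3 was at 4.74 and 6.79 TPM in DUCAP and at 13.5 and 15.4 TPM in VCAP (−1.21 ± 0.19 SE, adjusted p = 0.0037). IFIT5 was at 0.72 and 0.89 TPM against 2.55 and 3.06 TPM (−1.07 ± 0.17 SE, adjusted p = 0.0043). The other 2 were the receptor genes IFNAR1 (−0.96 ± 0.19 SE, adjusted p = 0.011) and IFNGR2 (−0.73 ± 0.13 SE, adjusted p = 0.0060). The call of IFNAR1 was lost without DUCAP repeat 1 (0.081) and without VCAP repeat 2 (0.064). IFNAR2 (−0.62 ± 0.29 SE, adjusted p = 0.19), IFNGR1 (−0.20 ± 0.18 SE, adjusted p = 0.53), JAK1 (−0.27 ± 0.20 SE), JAK2 (−0.17 ± 0.16 SE, adjusted p = 0.54) and TYK2 (0.03 ± 0.23 SE, adjusted p = 0.99) did not pass. Without DU145 repeat 1, 12 members were lower in DUCAP (all genes 21.9%) and USP18 was higher (7.41%). Median-ratio scaling left 4 members lower (all genes 11.0%) and called IRF1 and USP18 higher in DUCAP (9.31%), and the share of higher calls among all calls went from 23.2% to 45.8% for all genes.

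Further genes of the pathway were read from lists compiled by hand. Of 21 interferon ligand genes, 17 were listed at 0 in all 10 samples and none passed the filter. IFNE was at 0.39 and 0.18 TPM in DU145 and 0.83 and 0.67 TPM in PC3 and at 0 in the other lines. IFNB1 was at 0.06 TPM in DU145 repeat 2, IFNL1 at 0.14 TPM and IFNL3 at 0.08 TPM in DU145 repeat 1, and each was listed at 0 in the other 9 samples. A list of other ISGs had 33 tested members. Of these, IFI16, GBP1, GBP3, APOL1, APOL6 and BATF2 passed the filter through DU145 or PC3 alone. Of the 33, 27 were higher in DU145 and PC3 than in the other lines (all genes 51.9%) and 2 were lower (22.5%). After median-ratio scaling 23 were higher (all genes 37.8%) and 4 lower (34.8%), and without DU145 repeat 1 and repeat 2, of 30 tested, 23 and 25 were higher. The scramblase PLSCR1 led with 84.0 and 41.0 TPM in DU145 and 39.6 and 40.5 TPM in PC3 against 0.71 to 1.49 TPM elsewhere (4.64 ± 0.20 SE), before the ISG15-conjugating enzyme UBE2L6 (4.07 ± 0.22 SE) and NMI (3.70 ± 0.09 SE). TRIM14 (−0.92 ± 0.11 SE) and ADAR (−0.27 ± 0.10 SE) were the 2 that fell.

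Of 14 tested genes of nucleic acid sensing, 8 were higher in DU145 and PC3 and 2 were lower, shares near those of all genes (51.9% and 22.5%). After median-ratio scaling 8 were higher and 6 lower, and without either DU145 sample 8 were higher. STING1, the adaptor of cytosolic DNA sensing, was at 108 and 28.0 TPM in DU145, 15.4 and 23.4 TPM in PC3 and 0.39 to 2.06 TPM elsewhere (3.94 ± 0.34 SE). CGAS, the DNA sensor upstream of it, was at 10.0 and 13.5 TPM in DU145, 6.78 and 5.45 TPM in PC3 and up to 0.07 TPM elsewhere (3.22 ± 0.11 SE). CGAS thus passed the filter through DU145 and PC3 alone. IKBKE rose too (2.66 ± 0.13 SE), while TLR3 (−0.57 ± 0.11 SE) and IRF8 (−0.38 ± 0.07 SE) fell. IRF8 passed the filter through VCAP alone (2.52 and 2.59 TPM). It was listed at 0 in LNCaP and PC3, at 0.10 and 0.14 TPM in DUCAP and at 0.41 and 0.56 TPM in DU145. Of 28 other JAK-STAT genes tested, 19 were higher and 4 were lower (all genes 51.9% and 22.5%). After median-ratio scaling 17 were higher and 7 lower (all genes 37.8% and 34.8%), and without DU145 repeat 1 and repeat 2, 18 and 20 were higher. The largest rises were in OSMR, a cytokine receptor subunit (4.24 ± 0.22 SE), and the feedback inhibitors SOCS3 (3.77 ± 0.39 SE) and SOCS2 (3.43 ± 0.15 SE). SOCS3, and with it STAT4 and JAK3 of this list, passed the filter through DU145 or PC3 alone. STAT5B, STAT3 and SOCS7 (−0.98 ± 0.12 SE) were the 3 largest falls.

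Between the DU145 repeats, 10 of the 33 other ISGs (30.3%) and 4 of the 28 other JAK-STAT genes (14.3%) were at least 2-fold higher in repeat 1, against 5.70% of all genes. Of the 14 sensing genes 1 was (7.14%, STING1), a share near that of all genes. SOCS3, which interferon and other cytokines induce, was at 30.9 TPM in repeat 1 and 5.24 TPM in repeat 2, and OSMR at 231 and 102 TPM. CGAS ran the other way, with 10.0 and 13.5 TPM.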

How the data were processed

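Bulk mRNA libraries (strand-specific, polyA-enriched) of 10 samples from 5 cell lines were analysed. The authors trimmed the reads with Trim Galore 0.6.5 after FastQC 0.11.9, aligned them to GRCh38 with STAR 2.7.2b, quantified genes with RSEM 1.3.3 and deposited the TPM of each sample, with no pooling and no scaling between samples stated. Tool versions are those of the submitters' processing notes. TPM keep no depth, so no count model, interval or detection floor was used, and precision rests on 2 repeats per line. p-values speak of these cultures only.

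Values were analysed as log2(TPM + 1), which understates the change of low genes. The 17520 of 60642 genes that reached 1 TPM in 2 or more samples were fitted in limma 3.58.1 (R 4.3.3) with 1 coefficient per line and a mean-dependent prior variance. p-values were adjusted by Benjamini-Hochberg over all genes, with a threshold of 0.05. On simulated data (20 draws, 17520 genes, DU145 and PC3 against the other lines, 200 genes changed by 1.5 on the log2 scale) the fit recovered 94.0% of the changed genes on average (89.5 to 97.0%), and 5.69% of its calls were false, above the nominal 5%. Each simulated gene had the same spread in all lines, and the unchanged genes had equal line means. In the real data the DU145 repeats differed more than those of the other lines, and 74.4% of all genes were called in this comparison. The simulated rates therefore do not carry over to these data. An F test and 4 contrasts were made, 2 of which compare means of several lines. The members and all gene lists were chosen with earlier results of these data known. Named with values are the receptors and kinases, the 5 largest called rises and falls of each contrast, the 3 most abundant members of each line, members under 1 TPM throughout, and for other lists the 3 largest called changes in each direction. Genes named beside these, the neighbours of DHX58 included, were chosen after their values were seen. Alternatives were another pseudocount, other filters, other scalings, a constant prior variance, the repeat number or the number in the sample name as a block, a minimum change of 2-fold, and leaving out each sample. Gene positions and promoters came from RefSeq tables of GRCh38.p14, and figures were drawn with matplotlib.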

Additional observations from a re-analysis of the deposited data

How the results depend on the processing

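Counts below are members past the threshold in either direction. A minimum change of 2-fold left 20 of 34 (DU145 and PC3 against the other lines), 4 of 17 (DU145 against PC3), 8 of 16 (LNCaP against DUCAP and VCAP) and 0 of 4 (DUCAP against VCAP), and 3826, 2031, 3592 and 312 of all genes. It was not run for the F test. At 5 TPM in place of 1 TPM, 7 members and not 18 were expressed in every sample. Leaving out each sample in turn gave 31 to 38, 7 to 26, 11 to 30 and 3 to 13 members, and 1319 to 4955 of all genes for DUCAP against VCAP. The highest counts of the last 3 came without a DU145 sample, and the lowest of the second without PC3 repeat 1. Repeat numbers were not tied across lines by the labels, and the deviations of same-numbered samples had a mean correlation of 0.00922 over 10 line pairs (−0.191 to 0.249). With the repeat number as a block the counts were 34, 19, 17 and 4. Of all genes 74.2%, 48.7%, 64.4% and 16.8% were then called. With the number in the sample name as a block, an alternative chosen after seeing the data, the member counts were 37, 15, 21 and 5. The shares of all genes were then 68.2%, 46.1%, 64.8% and 15.7%, and without a block they were 74.4%, 49.3%, 64.6% and 18.3%. The log2 difference changed sign for IFNGR1 in the first comparison (−0.163 to 0.091 over the samples left out, the latter without DU145 repeat 2, and 0.108 with the second block) and for IFNAR1 in the second (−0.019 to 0.247, the former without DU145 repeat 2). In LNCaP against DUCAP and VCAP it did so for IFNAR1 after quantile normalization (−0.545), median-ratio scaling (−0.561), rescaling without mitochondrial genes (−0.206) and without DUCAP or VCAP repeat 1 (−0.025 and −0.016, range to 0.18), for IFNAR2 with quantile normalization (−0.229) and median-ratio scaling (−0.202), and for TYK2 with median-ratio scaling (−0.016). In DUCAP against VCAP it did so for IFNGR1 with median-ratio scaling (0.003), JAK2 with quantile normalization (0.057), and TYK2 without mitochondrial genes (−0.001) or VCAP repeat 2 (−0.356, range to 0.415). The cause of these changes was not tested. The 22 ISGs at least 2-fold higher in DU145 repeat 1 were 22 to 24 under the 4 alternatives, which were chosen after seeing the data.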
